A study of Homo sapiens with 9 samples.

Results

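The clustered protocadherins are 53 adhesion genes that lie in 3 neighbouring families on chromosome 5, and the peaks of CTCF and ZEB1 among them are described here. All peaks of 5 deposited lists that overlapped chr5:140150000-140900000 (hg19) were taken, which gave 20 of 47426 peaks in all. Of these, 19 came from the CTCF list of 31754 peaks and 1 from the 4 ZEB1 lists together. In a RefSeq gene table (GRCh38.p14, used for names and order only) all 53 genes were found, in the order PCDHA (15 genes), PCDHB (16 genes) and PCDHG (22 genes).

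Chromatin immunoprecipitation with sequencing was used to map both proteins in cells that had been fixed with formaldehyde. CTCF was profiled in unmodified MiaPaCa2 cells, a pancreatic ductal adenocarcinoma line. ZEB1 was profiled in unmodified MiaPaCa2 cells, in unmodified RKO cells, a colon carcinoma line, and in 2 MiaPaCa2 derivatives isolated by dilution, each a single clone. The WT clone came from cells electroporated with plasmids for the Cas9 nickase. The delta-Repeat clone had received the nickase together with guide RNA pairs aimed at repeats that lie upstream of the MIR200A and MIR200B genes, which are not on the chromosome of the protocadherins. All ZEB1 samples used 1 antibody in 3 lots, with 1 lot for both clones. Each condition had 1 sample with a peak list, so no difference between conditions could be set against a spread between replicates, and no test was made. CTCF was not profiled in RKO cells or in the clones in the samples analysed here. Read depth is unknown from the lists, whose ZEB1 peaks numbered 1515 for the WT clone, 2160 for the delta-Repeat clone, 4804 for MiaPaCa2 and 7193 for RKO.

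Clustered protocadherins are cadherin-like cell surface proteins, best known in neurons, where single cells choose different members and so carry different surface identities. In the PCDHA and PCDHG families each variable exon has a promoter of its own and is spliced to constant exons shared by the family, whereas the PCDHB genes have no shared constant exons. CTCF, which marks insulators and anchors chromatin loops, is known to bind many of these promoters and the enhancers of the clusters. It often does so over a conserved promoter element with the letters CGCT at its core. Methylation of such sites is known to weaken CTCF binding. ZEB1 is a zinc-finger repressor of epithelial genes that drives the epithelial-to-mesenchymal transition.

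Promoters of the 3 families carried words of their own around CGCT. RefSeq promoters (GRCh38.p14, 250 bases before to 50 after each gene start) were at hand for 47 of the 53 genes, namely 13 PCDHA, 14 PCDHB and 20 PCDHG genes. CGCT itself was in 46 of these 47 and in 70.0% of all 35116 promoters of the table, either strand counted. Read forward only, it was in 46 of the 47 and in 54.3% of all promoters. CGCT was thus more frequent among the members, but it is too common for its presence alone to mark the family. Here and below, members were counted by gene and all promoters by table entry, and 5 members had 2 entries. For each family the 8-base word that holds CGCT and is shared by most of its genes was then taken. The sequences below are shown because they are the promoter letters in which members of a family are alike. Each is 38 bases from the + strand, 5′ to 3′, upstream of the gene start, with the family's word in capitals.

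PCDHA1, chr5:140786078-140786115: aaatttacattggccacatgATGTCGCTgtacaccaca
PCDHA2, chr5:140794773-140794810: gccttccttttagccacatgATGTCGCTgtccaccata
PCDHA4, chr5:140806971-140807008: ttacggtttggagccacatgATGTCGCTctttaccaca
PCDHA5, chr5:140821534-140821571: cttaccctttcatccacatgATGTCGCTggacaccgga
PCDHB2, chr5:141094536-141094573: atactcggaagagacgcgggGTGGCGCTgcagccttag
PCDHB3, chr5:141100385-141100422: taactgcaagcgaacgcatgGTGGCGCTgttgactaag
PCDHB4, chr5:141121715-141121752: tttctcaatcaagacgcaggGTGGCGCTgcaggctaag
PCDHB7, chr5:141172558-141172595: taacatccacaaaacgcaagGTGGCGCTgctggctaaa
PCDHGA1, chr5:141330397-141330434: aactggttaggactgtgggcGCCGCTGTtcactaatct
PCDHGB1, chr5:141350019-141350056: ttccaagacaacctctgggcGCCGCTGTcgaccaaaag
PCDHGA7, chr5:141382643-141382680: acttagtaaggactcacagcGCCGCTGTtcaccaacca
PCDHGB4, chr5:141387611-141387648: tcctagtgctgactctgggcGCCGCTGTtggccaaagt

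These positions are of GRCh38.p14 and cannot be set beside the hg19 positions of the peaks. The first 4 genes of each family, in chromosome order, that carry the word with at least 10 bases between it and their start are shown. The word ATGTCGCT was in 9 of 13 PCDHA promoters and in 0.234% of all promoters, either strand counted. The word GTGGCGCT was in 13 of 14 PCDHB promoters and in 1.15% of all promoters. Thus every PCDHB promoter at hand except 1, that of PCDHB1, carried it. The word GCCGCTGT was in 11 of 20 PCDHG promoters and in 1.63% of all. None of the 3 words was found in a promoter of the other 2 families. The words were chosen from these same sequences, so their counts describe the members and test nothing.

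The words also lay at similar places. Counted from the word's first base to the gene start, the median distance was 52 bases in PCDHA (42 to 85), 65 in PCDHB (1 to 83) and 67 in PCDHG (42 to 97). For genes with 2 listed starts, the nearer place was taken. The exceptions were PCDHB5 at 15 bases and PCDHB8 at 1 base, where the word runs across the start. In the genes other than PCDHB8 that carry it, the word ended before the start.

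**Figure D1:**
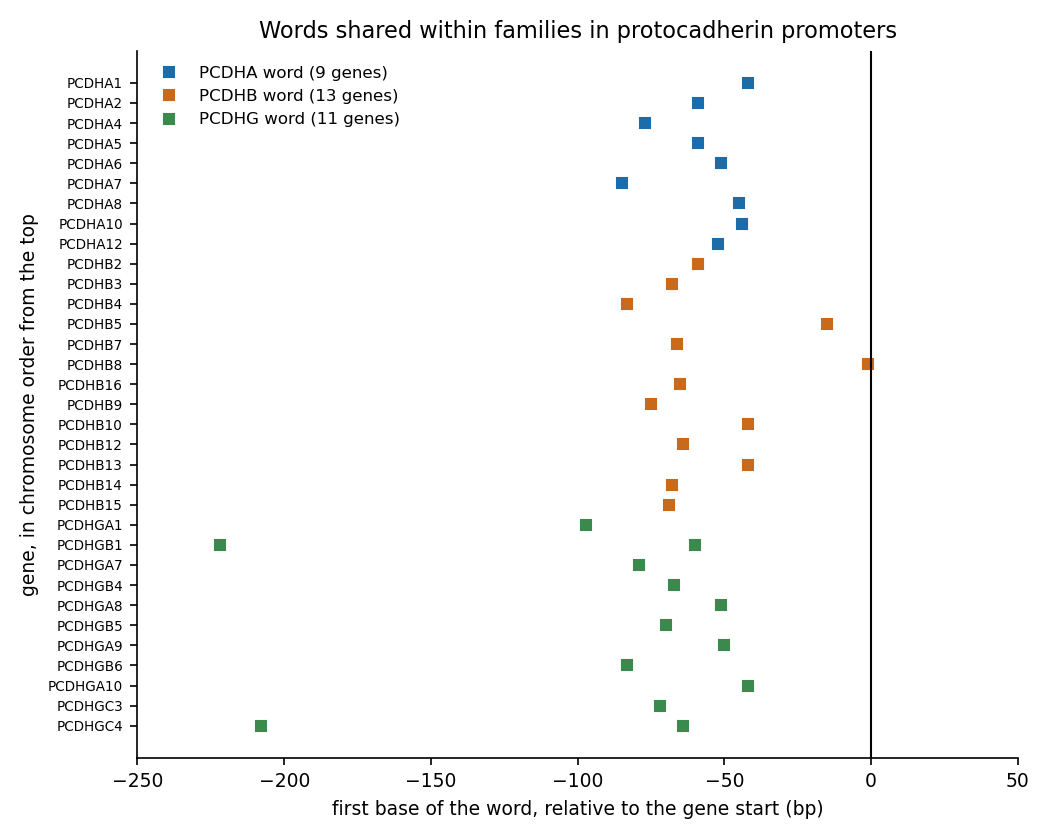
Position of the first base of each family's own word relative to the gene start (x axis, bp; 0 is the start), for the 33 genes whose promoter holds it, in chromosome order. Most squares sit within 100 bases upstream; PCDHGB1 and PCDHGC4 appear with 2 positions because the promoter table gives 2 starts for each.

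The promoters were also searched for 2 CTCF cores. The longer of them extends AGNNGGC by a fixed C on either side with free letters between. Searched on both strands, it was in 3 of 47 genes (PCDHB7, PCDHB9 and PCDHGC4) and in 9.12% of all promoters. With the shorter core, AGNNGGC alone on both strands, the count was 17 of 47, against 64.2% of all. By family the shorter core was in 2 of 13 PCDHA, 8 of 14 PCDHB and 7 of 20 PCDHG promoters. In PCDHB7 and PCDHB9 the longer core, here in capitals, overlaps the PCDHB word.

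PCDHB7, chr5:141172560-141172597: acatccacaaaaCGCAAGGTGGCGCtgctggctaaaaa
PCDHB9, chr5:141187068-141187105: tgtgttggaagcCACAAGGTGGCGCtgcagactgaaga

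A match of letters is not a bound site, and a promoter without one may still be bound. Reads from near-identical members can be hard to place. Stretches of 36 bases identical to those of another member's promoter were found in 6 of the 47 genes, PCDHB8 with PCDHB13 among the PCDHB genes, and PCDHGB4, PCDHGB5, PCDHGB6 and PCDHGB7 among the PCDHG genes. The sources used here do not say how reads that match several members were treated.

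CTCF peaks were frequent over the protocadherins, but fewer than the genes. The window of 750 kb held 19 CTCF peaks for 53 genes. Tiles of the same length over the genome held a median of 8 CTCF summits (quartiles 4 and 12, mean 9.13, highest 50, 3478 tiles). The count was 2.08 times the mean, and 9.66% of tiles held as many or more. Both neighbouring stretches of 750 kb held still more, with 26 CTCF summits before the window and 35 after it. The window was thus CTCF-dense beside the genome and sparser than both its neighbours.

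For description the window was divided into 3 stretches of 250 kb, at 140400000 and 140650000, which follow the order of the families. They are lengths of sequence, not gene borders, and no peak was joined to a gene, because no hg19 annotation was used here. The PCDHA stretch held 5 CTCF peaks, the PCDHB stretch 7 and the PCDHG stretch 7. Once peaks with less than 1 kb between them were merged, the PCDHA stretch kept 3. When the window was split at its 2 largest gaps instead, the counts were 5, 3 and 11, and at its 3 largest gaps, a split added after seeing the data, 5, 3, 4 and 7. The run of 3 peaks that opens the PCDHB stretch stayed the second group in both splits, while the run of 4 peaks at its end fell to the PCDHG group in one and stood alone in the other.

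**Figure D2:**
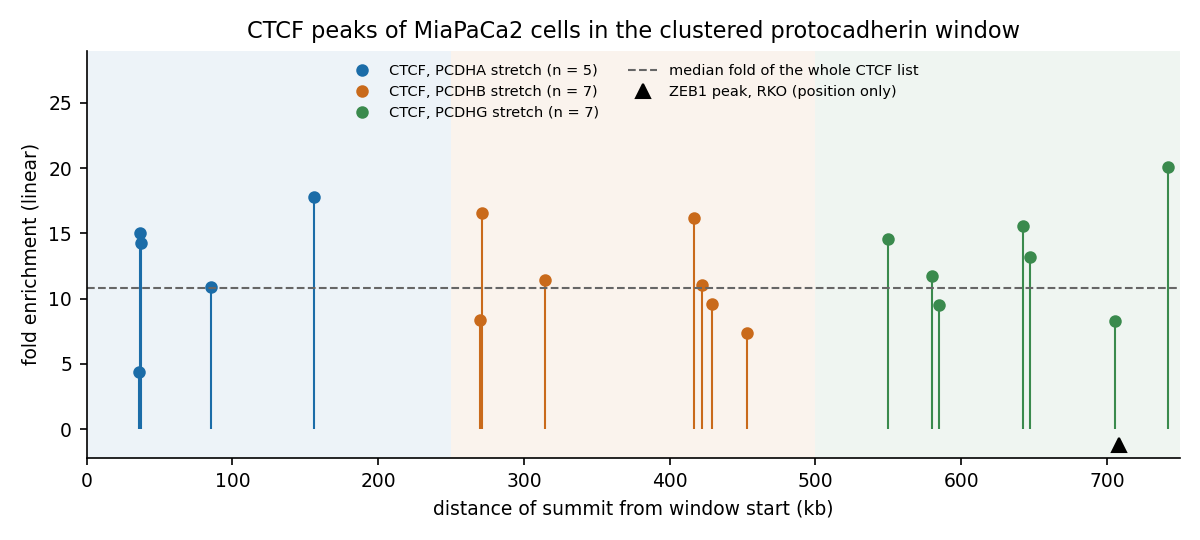
CTCF peaks of MiaPaCa2 cells along the window, with the distance of the summit from the window start (x axis, kb) and the authors' fold enrichment (y axis, linear); colours and shading mark the 3 stretches, the dashed line is the list's median fold of 10.8 and the triangle marks the position of the RKO ZEB1 peak. Peaks stand in short runs or alone, with long empty lengths between them, and the peak of highest fold, 20.1, is the last.

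In the PCDHA stretch, 3 of the 5 CTCF peaks stood together near its start. This is the family whose variable exons, PCDHA1 to PCDHA13 with PCDHAC1 and PCDHAC2, share 1 set of constant exons. The first peak (140185854 to 140186053, 200 bp wide) was the weakest of all 19, with a fold enrichment of 4.38 and 3.78 as its −log10 q. Fold here is the authors' linear ratio of the signal at the summit over the caller's background. It was followed by a peak from 140186343 to 140186815 with a fold of 15.1 (−log10 q 54.7). The third lay from 140187130 to 140187460, with a fold of 14.3. Their summits were 621 and 750 bp apart, so this trio covers little more than 1 place of the cluster.

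The other 2 peaks of the PCDHA stretch were solitary. One lay from 140235344 to 140235582 with a fold of 10.9, a width of 239 bp and rank 15656 of 31754. The other, from 140305892 to 140306424, was the strongest of the stretch, with a fold of 17.8, a width of 533 bp and rank 5301. Gaps of 48.2 and 70.7 kb separated the trio and these peaks. With 15 genes in the family, CTCF was thus called at 3 separate places of the stretch.

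The PCDHB stretch began with a close pair. These peaks lay from 140419755 to 140420192 (fold 8.35) and from 140420740 to 140421149 (fold 16.6, rank 6571), with summits 967 bp apart. They came 113.8 kb after the last peak of the PCDHA stretch, the longest gap of the window. In the gene table, LOC124901090 and PCDHB1-AS1 stand between the PCDHA constant region and PCDHB1. Which of these genes the pair lies near was not measured. A single peak followed from 140463917 to 140464402, with a fold of 11.5 and a width of 486 bp, the widest of the stretch.

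A run of 4 CTCF peaks stood in the later part of the PCDHB stretch. They lay from 140566374 to 140566813, 140571621 to 140572066, 140578943 to 140579321 and 140602640 to 140603028. Their folds were 16.2, 11.0, 9.57 and 7.39 in this order, each lower than the one before. Their summits were 5.26, 7.20 and 23.7 kb apart. The PCDHB genes are short single units that follow each other closely, with the pseudogenes PCDHB17P, PCDHB18P and PCDHB19P among them. The run was set off by summit-to-summit gaps of 102.5 kb before it and 97.1 kb after it.

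In the PCDHG stretch, which starts at 140650000, CTCF peaks reached from 140699670 to near its end. First and last summit were 192.2 kb apart, against 182.8 kb in the PCDHB stretch. The first peak of the PCDHG stretch lay from 140699670 to 140700150 (fold 14.6, −log10 q 52.2). In the gene table SLC25A2, a mitochondrial carrier, and TAF7, a subunit of the general transcription factor TFIID, stand between PCDHB15 and PCDHGA1. Then came 2 pairs of similar make. The first pair lay from 140729386 to 140729872 (fold 11.7) and 140734390 to 140734786 (fold 9.48), with summits 4.86 kb apart. The second lay from 140792308 to 140792725 (fold 15.6) and 140796963 to 140797285 (fold 13.2), with summits 4.63 kb apart. In both pairs the first peak had the higher fold. PCDHGA and PCDHGB genes alternate along most of this family, ahead of PCDHGC3, PCDHGC4 and PCDHGC5.

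Near the end of the window stood 2 solitary CTCF peaks. One, from 140855345 to 140855677, had the lowest fold of the PCDHG stretch, 8.28, at rank 21382. The other, from 140891764 to 140892359, had the highest fold of all 19 at 20.1, the highest −log10 q at 65.2, the greatest width at 596 bp and the best rank at 3369. The gene that follows PCDHGC5 in the table is DIAPH1, a formin that nucleates actin filaments.

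Spacing was not regular over the window. The 18 gaps between neighbouring summits ran from 0.621 to 113.8 kb, with a median of 33.2 kb and quartiles of 4.96 and 58.3 kb. The coefficient of variation, the SD of the gaps divided by their mean, was 0.959. In 1381 tiles with at least 10 CTCF peaks its median was 1.03 (quartiles 0.881 and 1.20), and 38.7% of these tiles had a smaller value. By stretch it was 1.17 in PCDHA over 4 gaps, 1.27 in PCDHB over 6 and 0.749 in PCDHG over 6. Merging peaks with under 1 kb between them gave 0.780 for the window. Merging takes out the shortest gaps, and the tiles were not merged, so 0.780 cannot be set beside their values.

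Each gap was either under 10 kb or at least 20 kb. Gaps under 10 kb numbered 7 of 18 (38.9%, exact Clopper-Pearson 95% interval 17.3 to 64.3), against 22.0% of neighbouring summits in the whole list, a share that the interval includes. Of these, 3 were under 1 kb (16.7%, exact interval 3.58 to 41.4), against 2.21% in the whole list, a share below the interval. The gaps of 0.621 and 0.750 kb among them lie in the PCDHA trio that holds the weakest peak, so they are not separate places. The other 4 were between 4 and 8 kb (22.2%, exact interval 6.41 to 47.6), limits chosen after the gaps were seen. In the whole list that share was 8.10%, which the interval includes. The remaining 11 were 20 kb or more, an ordinary length, as the median gap of the whole list was 35.9 kb. The share of the whole list from 10 to 20 kb, where the window had no gap, was not computed. Gaps beyond 3 times the window's median, that is over 99.5 kb, numbered 2, at 113.8 and 102.5 kb, and the next longest was 97.1 kb. In the whole list 22.5% of gaps were over that length, so gaps of this size are common.

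**Figure D3:**
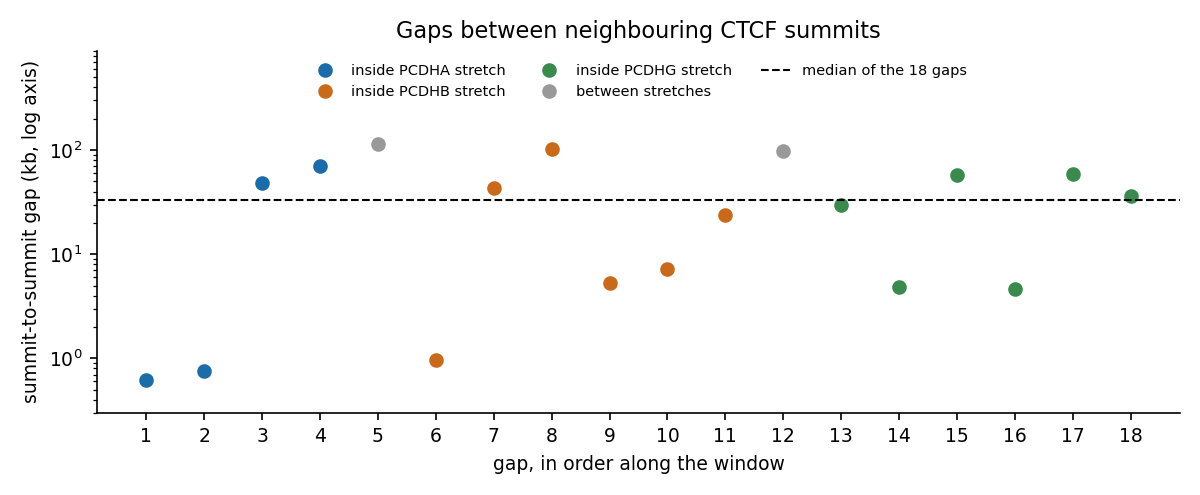
Summit-to-summit gaps (y axis, kb, log axis) in order along the window (x axis), coloured by the stretch that holds both summits, with grey for gaps between stretches and a dashed line at the median of 33.2 kb. The 7 gaps under 10 kb and the 11 of 20 kb or more leave an empty band between them.

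In fold and width the protocadherin peaks lay across the range of the CTCF list and were not among its extremes at the upper end. Their median fold was 11.7 (4.38 to 20.1), against 10.8 in the list. The strongest 25% of the list by rank, with folds of 15.5 or more, held 5 of the 19 (26.3%, exact interval 9.15 to 51.2), against 25.1% of the list. At or above the list's median fold were 13 of 19 (68.4%, exact interval 43.4 to 87.4), against 50.2% of the list, a share that the interval includes. Only 1 of the 19, the weak first peak of the PCDHA stretch, was in the weakest 25%. A stricter threshold, a fold of 5 or more with a −log10 q of 10 or more, kept 18 of the 19, against 80.4% of the list.

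The 3 stretches overlapped in these values. Median fold was 14.3 in the PCDHA, 11.0 in the PCDHB and 13.2 in the PCDHG stretch. The strongest 25% held 1 of 5, 2 of 7 and 2 of 7 peaks. Median width was 331 bp (200 to 533), 438 bp (379 to 486) and 418 bp (323 to 596), against 387 bp in the list (quartiles 309 and 470). PCDHB peaks had the narrowest range of widths, inside that of the PCDHA and of the PCDHG peaks. Peaks of 1 list are not replicates of a condition, so these differences carry no test.

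**Figure D4:**
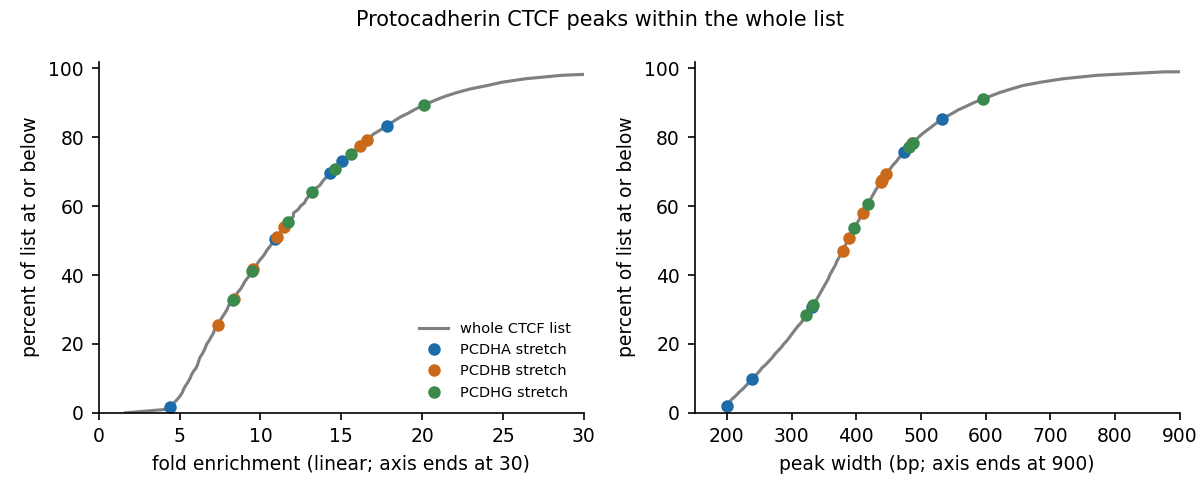
Place of the 19 protocadherin CTCF peaks (points, coloured by stretch) on the cumulative curve of the whole CTCF list (grey), for fold enrichment on the left (linear) and peak width in bp on the right; the y axis is the percent of the list at or below a value. The points spread along both curves, from the weak and narrow first peak at their lower end, and the highest fold of 20.1 lies above 89.4% of the list by rank.

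ZEB1 was nearly absent from the protocadherins. In unmodified MiaPaCa2 cells, the WT clone and the delta-Repeat clone the window held 0 ZEB1 peaks, and in RKO cells it held 1. Tiles with no ZEB1 summit made up 48.7% of all tiles for MiaPaCa2, 73.6% for the WT clone, 64.6% for the delta-Repeat clone and 45.2% for RKO, so an empty tile is common. Among the 336 tiles with at least 19 CTCF summits such tiles were fewer, at 5.65%, 33.6%, 23.2% and 4.76% in the same order. Over the 4 lists together, at most 1 ZEB1 summit was found in 46.8% of all tiles and in 4.46% of the CTCF-dense ones (15 of 336), where the median was 13. The lists share cells and places, so this sum is not a count of independent events. With 19 CTCF summits the window stood at the lower limit of the CTCF-dense tiles, of which 46 held 19 and the densest held 50. For MiaPaCa2 the median ZEB1 count was 4 in CTCF-dense tiles and 1 over all tiles. Tiles of 19 CTCF summits alone were not compared, so these shares may overstate how unusual the window is. Absence from a list of unknown depth does not show that ZEB1 was not bound.

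**Figure D5:**
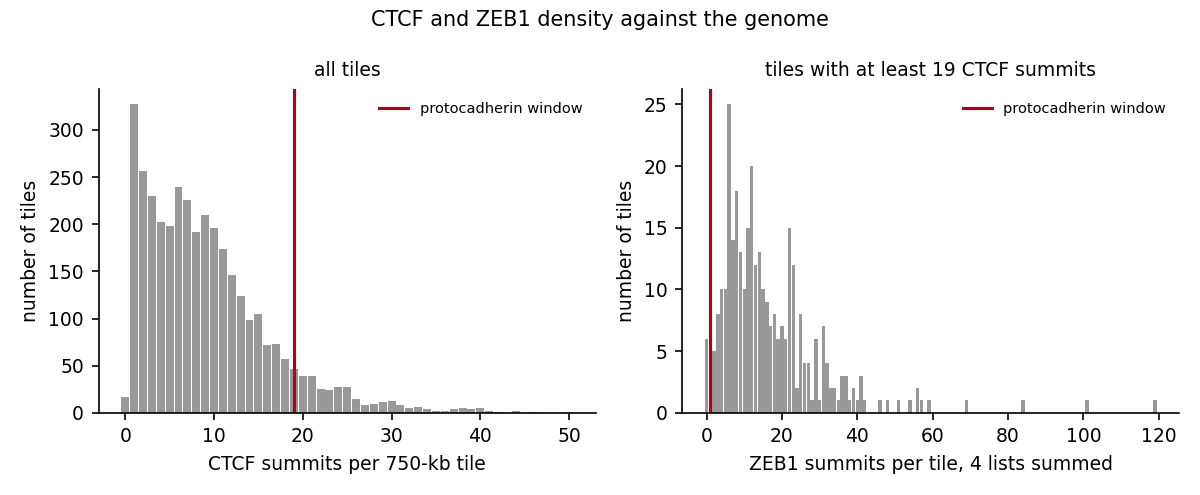
Left, number of 750-kb tiles (y axis) by their count of CTCF summits (x axis), with the protocadherin window marked at 19. Right, the 336 tiles with at least 19 CTCF summits by their count of ZEB1 summits over the 4 lists, where the window is marked at 1, near the lower end.

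The single ZEB1 peak lay in the PCDHG stretch of RKO cells, from 140857934 to 140858275. It was 342 bp wide, with a fold of 7.78 (−log10 q 11.8) and rank 1867 of 7193, above 74.0% of its list. The median fold of the RKO list was 6.04. The peak also passed the stricter threshold. Its summit lay 2560 bp beyond that of the CTCF peak at 140855345 to 140855677, the weakest of the PCDHG stretch, and 2256 bp of free sequence separated both peaks. The next CTCF summit was 34.0 kb farther on. A CTCF summit at least as near was found for 33.4% of RKO ZEB1 peaks, so the distance is an ordinary one, and CTCF was measured in MiaPaCa2 and not in RKO.

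No CTCF peak of the protocadherins overlapped a ZEB1 peak of any list. For ZEB1 in unmodified MiaPaCa2 cells, 0 of 19 overlapped. This follows from the 0 ZEB1 peaks of that list in the window and is not a separate result. Taken as a count alone, 0 of 19 allows a share of up to 15.8% (3 counts) or 17.6% (exact interval), against 3.10% of all CTCF peaks. By the rule for overlap the latter share ran from 1.07% to 4.30%, while the count in the window could only be 0 under each rule. For RKO the share over all CTCF peaks was 3.36%. A difference from the whole list was not detectable with 19 peaks.

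ZEB1 peaks resumed outside the window. Unmodified MiaPaCa2 cells had the nearest ones, from 140098177 to 140098446 (fold 5.91), 51.6 kb before the window, and from 140937280 to 140937479 (fold 4.04), 37.3 kb after it. In the 3 lists other than MiaPaCa2 the nearest earlier peak was 369 kb away, at about the same place in each. It began at 139780287 in RKO (fold 12.5), at 139780386 in the WT clone (fold 7.15) and at 139780421 in the delta-Repeat clone (fold 4.14). After the window the nearest peak was 97.7 kb away for RKO and also for the delta-Repeat clone, and 356 kb away for the WT clone. The 750 kb before the window held 5 ZEB1 summits of MiaPaCa2, 4 of RKO, 3 of the WT clone and 2 of the delta-Repeat clone, and the 750 kb after it held 6, 5, 1 and 2 in this order. Each list thus had more ZEB1 summits in each neighbour of 750 kb than in the window of the same length, by as little as 1 against 0 for the WT clone. The neighbours also held more CTCF summits, 26 and 35 against 19.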

How the data were processed

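Peak lists of 5 samples were used, and 4 input samples were not analysed here. Builds hg19 and GRCh37 are named in the submitters' processing notes, as are MACS2 2.1.0.20150731, SAMtools and Bowtie2 2.2.6. Control libraries and any pooling are not stated there. Fold enrichment was deposited as a linear ratio of the summit's signal to a background set by the caller. The p and q columns were deposited as −log10 values, and the deposited score was not used. Folds were ranked within their own list only.

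A peak was a member when it overlapped the window by at least 1 bp. Summits were counted in 750-kb tiles from each chromosome's start (chromosomes 1 to 22 and X), keeping tiles with a peak of any list. Shares carry exact Clopper-Pearson 95% intervals, which, like the limit of 3 counts, cover counting error only. The code was tested on simulated lists. Tools were scipy 1.17.1, pandas 2.3.3 and numpy 2.4.6 under Python 3.11.15, with matplotlib 3.10.9. Peaks were named by rule: in each stretch the 5 of highest fold, the lowest and the widest, those beside gaps over 3 times the median, and every ZEB1 peak; this took in 19 of the 20, and the CTCF peak that begins at 140734390 was added after its values were seen. Members, lists and rules were chosen with earlier results of these data known.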

Additional observations from a re-analysis of the deposited data

How the results depend on the processing

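No paired analysis was possible because no group has more than 1 sample. CTCF peaks in the window numbered 18 under the stricter threshold (fold of 5 or more, −log10 q of 10 or more), and 16 with peaks less than 1 kb apart joined. Joining lowered the PCDHA stretch from 5 to 3. Splitting at the 2 largest gaps gave 3 peaks in PCDHB and 11 in PCDHG. The share of tiles at least as CTCF-dense was 6.73% with the stricter threshold and 14.2% with joined peaks, the latter added after seeing the data. The shorter core was in 17 promoters in place of 3, by construction at least as many. In all 3 other overlap rules tried, 0 CTCF peaks of the window met ZEB1 in MiaPaCa2. With 0 such ZEB1 peaks in the window and the nearest 37.3 kb outside it, these rules could give no other count. The share over all CTCF peaks moved from 3.10% to 1.29% with 50% of both peaks. It was 1.07% with summits within 100 bp and 4.30% within 1000 bp. Values on spacing, fold rank, shifted tiles and the ZEB1 count stayed within their interval or within 1.5 times. Unknown depth, 1 sample per condition and the lack of an hg19 annotation limit statements on absent peaks and on single genes.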
